A study of Mus musculus with 4 samples.

Results

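Neurog1, Neurog2, Atoh1, Neurod1, Neurod4, Nhlh1, Nhlh2 and Gadd45g, which act as progenitors of the nervous system become neurons, were followed through single cells of the E10.5 mouse head. They were chosen by name, and all 8 were listed in each of the 4 libraries, which together listed 20719 genes. The first 7 encode basic helix-loop-helix (bHLH) transcription factors, whereas Gadd45g encodes a growth arrest and DNA damage inducible protein and is no bHLH factor, so a bHLH label does not cover it.

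The 4 libraries came from heads of embryos at E10.5 (embryonic days), titled embryonic brain. Libraries labelled Apcdd1+/- (replicates 1 and 2) stand for embryos with 1 altered copy of Apcdd1, a membrane glycoprotein that inhibits Wnt signalling, and WT libraries (replicates 1 and 2) for wild-type embryos. The sources used here give neither the strain nor which part of Apcdd1 was altered, nor how many embryos and litters a library held, so a p-value reads the spread among these libraries alone, and that spread may be technical. The series belongs to a study of structural variants in macaque genomes, and droplet libraries of dissociated cells sorted to remove dead ones were read as unique molecular identifiers (UMIs, 1 per captured transcript molecule) per gene and cell.

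Proneural bHLH factors start neurogenesis: they bind DNA as dimers with E proteins, switch on the Notch ligands and the differentiation factors of the cell that expresses them, and through Notch keep neighbouring cells in the progenitor state by Hes repressors. Neurog1 and Neurog2 do this in many regions of the brain and in cranial ganglia, while Atoh1 does so in the rhombic lip and other dorsal domains. Neurod1 and Neurod4 follow the proneural factors, Nhlh1 and Nhlh2 mark newly born neurons, and Gadd45g is known as a target of proneural factors in differentiating cells.

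The bHLH factors bind an E-box, with the letters CANNTG on either strand. Windows from 250 bases before to 50 bases after the annotated starts (RefSeq, GRCm38.p6) are shown for Nhlh1, Nhlh2, Gadd45g and Neurod1, since the levels of the first 3 separated the stages of neurogenesis and Neurod1 is a differentiation factor whose place among them, like that of Neurod4, depended on the gates. All are written 5′ to 3′ on the gene's strand, with each CANNTG in capitals.
Nhlh1, chr1:172057547-172057846, minus strand: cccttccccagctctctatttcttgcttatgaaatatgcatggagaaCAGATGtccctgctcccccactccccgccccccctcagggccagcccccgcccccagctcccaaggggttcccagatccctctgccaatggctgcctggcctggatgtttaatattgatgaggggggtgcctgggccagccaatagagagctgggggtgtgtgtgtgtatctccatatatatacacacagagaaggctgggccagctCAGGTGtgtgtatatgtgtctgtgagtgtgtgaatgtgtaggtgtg
Nhlh2, chr3:102009895-102010194, plus strand: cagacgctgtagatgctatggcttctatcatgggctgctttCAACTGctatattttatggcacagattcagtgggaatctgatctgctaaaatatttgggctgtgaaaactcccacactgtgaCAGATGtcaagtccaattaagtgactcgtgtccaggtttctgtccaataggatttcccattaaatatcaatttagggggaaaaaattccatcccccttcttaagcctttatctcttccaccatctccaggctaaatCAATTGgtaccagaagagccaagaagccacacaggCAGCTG
Gadd45g, chr13:51846425-51846724, plus strand: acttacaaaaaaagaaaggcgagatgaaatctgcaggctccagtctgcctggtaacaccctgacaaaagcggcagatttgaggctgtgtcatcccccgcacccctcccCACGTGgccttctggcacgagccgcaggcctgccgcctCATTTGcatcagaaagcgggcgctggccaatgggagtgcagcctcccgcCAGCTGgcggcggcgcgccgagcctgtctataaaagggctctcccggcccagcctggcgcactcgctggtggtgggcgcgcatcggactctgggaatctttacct
Neurod1, chr2:79456587-79456886, minus strand: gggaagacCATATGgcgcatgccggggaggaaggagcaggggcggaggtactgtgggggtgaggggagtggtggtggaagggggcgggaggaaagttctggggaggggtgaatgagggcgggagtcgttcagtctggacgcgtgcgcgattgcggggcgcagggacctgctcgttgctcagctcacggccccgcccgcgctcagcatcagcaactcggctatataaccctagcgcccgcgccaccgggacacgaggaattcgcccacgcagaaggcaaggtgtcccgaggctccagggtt
The letters occurred 4 times in the Nhlh2 window, 3 times in that of Gadd45g, 2 times in that of Nhlh1 and 1 time in those of Neurod1 and Neurog1. They were not found in the windows of Neurog2 and Atoh1, and 1 of the 2 windows of Neurod4 held 1 match. Of 32851 windows of the same length, 72.3% held at least 1 CANNTG, and among its forms 17.2% held CAGATG, 16.3% CAGCTG, 20.2% CAGGTG and 3.91% CATATG. A match is a run of letters and no shown binding site. The 4 genes whose windows are not printed lie at chr13:56250478-56252163 (Neurog1, minus strand), chr3:127633135-127635631 (Neurog2, plus strand), chr6:64729125-64731245 (Atoh1, plus strand) and chr10:130268152-130280240 (Neurod4, minus strand) in mm10.

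The 25074 barcodes held a median of 8949 and 8686 UMIs in the libraries labelled Apcdd1+/- and 11167 and 16260 in the WT libraries, and 23300 cells passed the filters. Pairs of libraries shared 6 to 25 bead barcodes, and no doublet caller was run. Apcdd1 itself did not separate the genotypes. In neural cells it had 96.6 and 61.9 counts per 1000000 UMIs (CPM) in the libraries labelled Apcdd1+/- and 82.5 and 80.4 CPM in the WT libraries, a log2 difference of 0.01 (SE 0.20, 95% interval -0.45 to 0.46, edgeR adjusted p = 1.00), and the difference was -0.38 when Apcdd1+/- replicate 1 was left out and 0.31 when Apcdd1+/- replicate 2 was. Since the alteration is not described, this level may not read the alteration, and every direction between genotypes below rests on the labels alone.

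Cells were sorted into classes by sums of marker genes, scaled to 10000 UMIs per cell, and no member entered a marker list. The 17301 neural cells comprised 13606 progenitor-gated cells (Sox1, Sox2, Hes5 and 5 other genes), 1448 transitional cells, 1414 neuroblast-gated cells (Dll1, Dll3, Hes6, Btg2, Insm1, Mfng and Srrm4 at 10 or over) and 833 neuron-gated cells (Tubb3, Dcx, Stmn2, Elavl3 and 6 other genes at 30 or over). The classes are ranges of a score: 501 of the 1414 neuroblast-gated cells lay within 20% of their cut, as did 219 of the 833 neuron-gated cells. Several gate genes, such as the Notch ligands Dll1 and Dll3, are known targets of proneural factors, so the neuroblast gate is not independent of the pathway. A further 487 neurons were set apart by a list of sensory ganglion genes, but the list also holds somatostatin (Sst), which had 1448 to 1938 CPM in them and is not particular to ganglia. They are called sensory-list neurons here and given no ganglion name.

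All 8 genes rose at the neuroblast stage. In neuroblast-gated against progenitor-gated cells, each was higher at an adjusted p under 0.05 (edgeR quasi-likelihood test with the library as a block, n = 4 libraries), where 48.7% of the 11670 genes tested passed in either direction and 23.6% were higher. The log2 difference was 6.12 (SE 0.11) for Neurog1, 3.76 (SE 0.10) for Neurog2, 3.81 (SE 0.24) for Atoh1, 7.78 (SE 0.17) for Neurod1, 7.23 (SE 0.26) for Neurod4, 7.48 (SE 0.21) for Nhlh1, 7.32 (SE 0.11) for Nhlh2 and 5.92 (SE 0.08) for Gadd45g. The neuroblast gate held 1414 of 23300 cells and yet 47.6% of all Neurog1 UMIs, 40.1% of those of Neurog2, 39.0% of those of Atoh1 and 54.5% of those of Gadd45g.

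Among the proneural genes, Neurog1 had 180.1, 159, 168 and 259 CPM in neuroblast-gated cells (Apcdd1+/- replicates 1 and 2, then WT replicates 1 and 2, an order kept wherever 4 values of 1 class follow), against 2.86, 3.07, 2.39 and 2.49 CPM in progenitor-gated cells. Neurog2 had 89.9, 107, 89.6 and 107 CPM in neuroblast-gated cells, against 5.36, 9.21, 6.16 and 9.27 CPM in progenitor-gated cells. WT replicate 2 lay above the other libraries for Neurog1 in neuroblast-gated cells, and the classes did not overlap for either gene. Atoh1 had 7.41, 18.3, 15.2 and 20.8 CPM in neuroblast-gated cells, against 0.683, 1.20, 0.788 and 1.75 CPM in progenitor-gated cells, again with no overlap. In neuron-gated cells all 3 were lower than in neuroblast-gated cells: Neurog1 had 111, 87.8, 102 and 108 CPM (log2 difference -1.0, SE 0.10, adjusted p = 5.27e-09 by edgeR), Neurog2 27.0, 32.5, 21.9 and 38.4 CPM (-1.89, SE 0.12) and Atoh1 4.35, 4.06, 2.30 and 6.74 CPM (-1.96, SE 0.31). In this second comparison 59.5% of genes passed, 27.3% higher and 32.2% lower. The fall of Neurog1 rests on where neuroblasts end and neurons begin: with all class cuts at 0.5 times their value it turned to 0.34 higher in neuron-gated cells (adjusted p = 0.00325 by edgeR), whereas Neurog2 and Atoh1 kept their direction and call under every alternative tried.

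The differentiation factors Neurod1 and Neurod4 were high in both neuroblasts and neurons, with no call between them. Neurod1 had 61.0, 60.0, 56.8 and 127 CPM in neuroblast-gated cells, against 0.228, 0.181, 0.406 and 0.510 CPM in progenitor-gated cells, with WT replicate 2 above the other 3 neuroblast values. It had 67.0, 97.5, 81.4 and 112 CPM in neuron-gated cells, and Neurod4 had 29.1, 26.4, 18.0 and 41.1 CPM there, against 14.8, 23.7, 17.6 and 40.0 CPM in neuroblast-gated cells. Neither passed the test of neurons against neuroblasts (Neurod1 0.15, SE 0.12, adjusted p = 0.285; Neurod4 0.17, SE 0.19, adjusted p = 0.483, both by edgeR), and their values overlapped. The place of the gates decides this call too. With cuts at 0.5 times their value the differences were 1.71 and 2.25, both past the threshold, and with cuts at 1.5 times they were -0.11 and -0.12. With the sensory-list neurons counted as neurons, an alternative chosen after seeing the data, Neurod1 was 0.94 higher (adjusted p = 2.98e-06 by edgeR) and Neurod4 0.50 higher (adjusted p = 0.0115 by edgeR), and without WT replicate 2 Neurod1 was 0.36 higher (adjusted p = 0.0206 by edgeR). Sensory-list neurons had 99.5, 352, 169 and 376 CPM of Neurod1 and 42.1% of all its UMIs. In the annotation Neurod1 lies wholly within Cerkl on the same strand and overlaps the noncoding Gm26755 on the opposite strand over 2767 bases, and the sources used here do not say how shared reads and strand were counted, so its counts are uncertain.

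Nhlh1 and Nhlh2 went on rising in neurons. Nhlh2 had 384, 439.7, 399.9 and 511 CPM in neuron-gated cells, against 68.4, 78.3, 81.0 and 98 CPM in neuroblast-gated cells, a log2 difference of 2.28 (SE 0.06, adjusted p = 1.50e-18 by edgeR). Nhlh1 had 100.5, 113, 117 and 127 CPM in neuron-gated cells, against 19.0, 33.9, 29.3 and 50.6 CPM in neuroblast-gated cells, a log2 difference of 1.73 (SE 0.13, adjusted p = 6.33e-11 by edgeR). No neuroblast value reached a neuron value for either gene. In progenitor-gated cells Nhlh2 had 0.386 to 0.733 CPM and Nhlh1 0.105 to 0.223 CPM. Both calls kept their direction under every alternative tried.

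Gadd45g had its highest level of any class in neuroblast-gated cells, with 1113, 1275, 1265 and 1113 CPM, against 24.4, 16.7, 21.6 and 15.3 CPM in progenitor-gated cells. Transitional cells lay between at 165 ± 11 CPM (SD, n = 4). Neuron-gated cells had 406, 389.9, 399.9 and 290.3 CPM, lower than neuroblast-gated cells by a log2 difference of -1.81 (SE 0.08, adjusted p = 3.40e-15 by edgeR). The neuron values lay below every neuroblast value and above every transitional value.

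**Figure D1:**
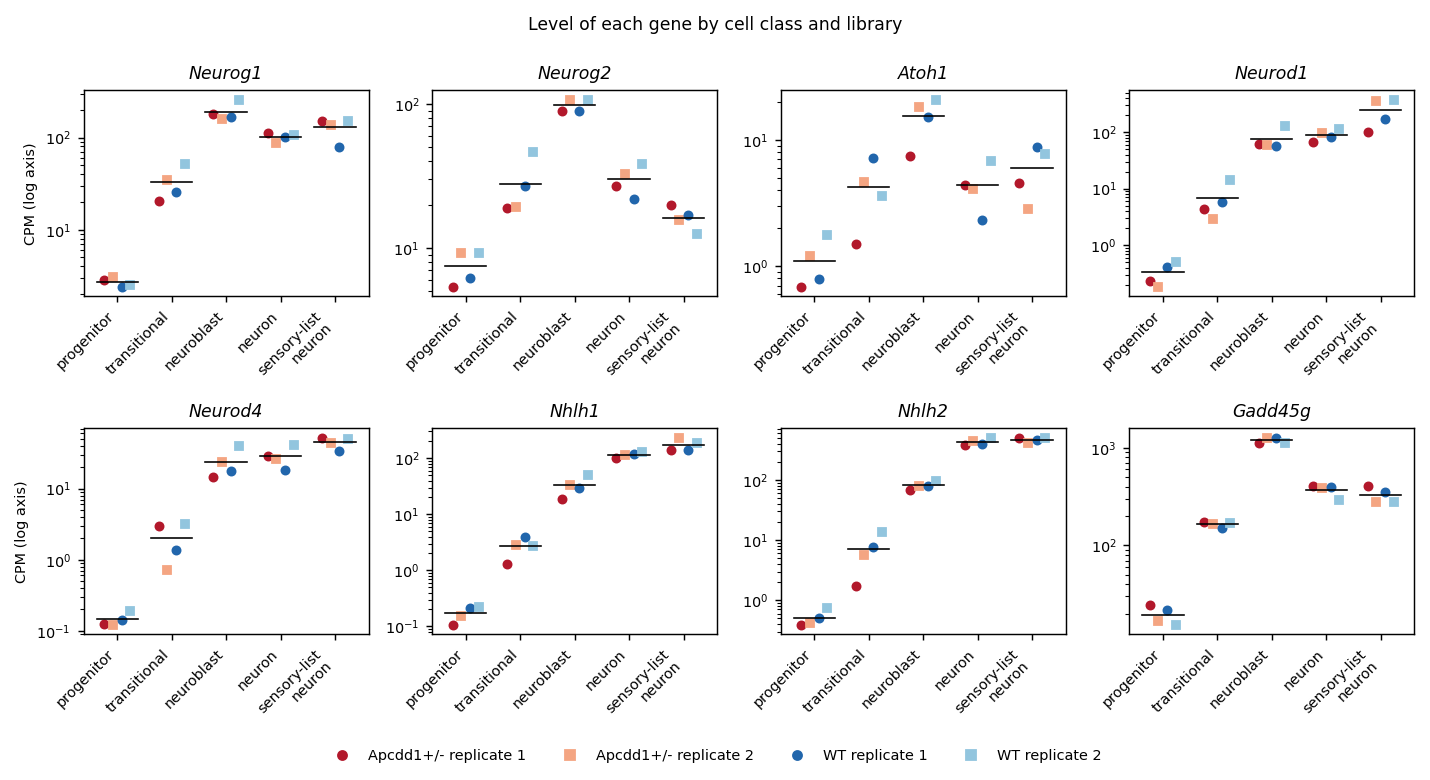
Level of each gene in progenitor-gated, transitional, neuroblast-gated, neuron-gated and sensory-list cells, in CPM on a log axis, 1 point per library with Apcdd1+/- and WT libraries marked apart and the mean of the 4 libraries as a black line. Neurog1, Neurog2, Atoh1 and Gadd45g are highest in neuroblast-gated cells, and Nhlh1 and Nhlh2 are higher still in both neuron classes.

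Ordered by mean level over the 4 libraries within the neural classes, Neurog1 ran neuroblast-gated (192 ± 45.6 CPM, SD, n = 4), sensory-list (129.9 ± 35.0), neuron-gated (102 ± 10.3), transitional (33.0 ± 13.6) and progenitor-gated cells (2.70 ± 0.320), where sensory-list overlapped with neuron-gated values. Outside them it averaged 15.4 ± 8.26 CPM in epithelial cells, 13.7 ± 16.1 CPM in the 68 neural crest and glial cells, 4.31 CPM (0 to 10.6 CPM) in cells of no class, 3.72 ± 3.81 CPM in endothelial and 1.84 ± 1.71 CPM in mesenchymal cells, and all of these but the epithelial values overlapped with the progenitor-gated values. Neurog2 ran neuroblast-gated (98.4 ± 9.96 CPM), neuron-gated (29.9 ± 7.12), transitional (27.9 ± 12.8), sensory-list (16.3 ± 3.09) and progenitor-gated cells (7.50 ± 2.04), where transitional values overlapped with both neuron-gated and sensory-list ones. Nhlh2 was at 469 ± 45.8 CPM in sensory-list and 433 ± 56.6 CPM in neuron-gated cells, which overlapped, and Nhlh1 was at 175 ± 46.2 CPM and 114 ± 10.8 CPM, with each sensory-list value above each neuron-gated value. Outside the neural classes, epithelial cells had 9.24 to 27.2 CPM of Neurog1, 9.86 to 34.1 CPM of Neurod1 and 17.7 to 25.2 CPM of Nhlh2. Gadd45g in endothelial cells was at 77.8, 379, 91.0 and 120.0 CPM, and Nhlh2 at 0.671, 92, 16.5 and 0 CPM. Apcdd1+/- replicate 2 was highest for both endothelial values. These rest on few cells, with 128, 27, 73 and 14 endothelial cells per library. The 54 endothelial Nhlh2 UMIs lay in 8 cells, with up to 25 in a cell.

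To set depth aside, each cell was thinned to 3000 UMIs. Neurog1 was then seen in 0.816% of progenitor-gated cells, 5.25% of transitional cells, 30.8% of neuroblast-gated cells (46.0% unthinned) and 20.8% of neuron-gated cells, and in 0.378% of mesenchymal cells, which should lack it (median depths of 10538, 8445, 8351, 8235 and 13773 UMIs). Neurog2 was seen in 1.64% of progenitor-gated, 18.0% of neuroblast-gated and 6.12% of neuron-gated cells and 0.175% of mesenchymal cells. Nhlh2 was seen in 0.125% of progenitor-gated, 12.8% of neuroblast-gated and 51.0% of neuron-gated cells and 0.582% of mesenchymal cells. In progenitor-gated cells the shares for Neurod4 (0.0220%), Nhlh1 (0.0588%) and Nhlh2 were thus below those in mesenchyme (0.116%, 0.204% and 0.582%), and that for Neurod1 (0.0882%) was within counting error of the mesenchymal share of 0.0582%. The progenitor gate leaves out cells with a neuron list at 10 or over or a neuroblast list at 5 or over. The mesenchyme gate has no such limit, so its shares do not measure background in progenitors. Mesenchymal Nhlh2 came as 141 UMIs in 46 cells, with up to 18 in a cell. The differences above are set against mean progenitor levels of only 0.144 to 0.510 CPM for these 4 genes. Gadd45g was seen in 4.96% of progenitor-gated and 5.56% of mesenchymal cells, but mesenchyme is not known to lack it, so that share is not taken as a background either. The progenitor shares of Neurog1, Neurog2 and Atoh1 stood above the mesenchymal ones, where Atoh1 was seen in 0 of 3435 cells, which allows a share of up to 0.0873% (3 counts of the total).

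The neural cells were also split into 7 bins by the sum of the neuron list, which follows the climb of neuronal cytoskeleton genes. Mean Gadd45g was 42.2, 76.0, 238, 879.8, 1076, 668 and 137 CPM in the bins 0 to 2, 2 to 5, 5 to 10, 10 to 20, 20 to 40, 40 to 80 and 80 and over, and each of the 4 libraries had its highest value at 20 to 40. Neurog1 averaged 6.80, 10.4, 31.8, 167, 218, 163 and 51.1 CPM in the same bins, highest at 20 to 40 in 3 libraries and at 10 to 20 in WT replicate 2. Nhlh1 averaged 0.403, 0.760, 3.80, 27.6, 79.8, 130 and 110.4 CPM and was highest at 40 to 80 in all 4 libraries. Nhlh2 averaged 0.638, 1.05, 10.2, 67.4, 232, 414 and 466 CPM and was highest at 80 and over in 3 libraries and at 40 to 80 in WT replicate 2. The highest bins of these genes thus came in the order Gadd45g and Neurog1, then Nhlh1, then Nhlh2, as a description with no test. The bins leave out the 487 sensory-list neurons, whose median neuron-list sum was 136. Mean Nhlh1 in those neurons was 175 CPM, above its mean in any bin, and mean Nhlh2 was 469 CPM. The place of Nhlh1 before Nhlh2 therefore covers the binned cells alone and was not tested with sensory-list neurons included. The summed level of 12 G2/M cell cycle genes averaged 2201, 2135, 2029, 1920, 1598, 1070 and 150 CPM along the same bins. Neurog2 and Neurod1 had their highest means at 20 to 40 (76.6 and 114 CPM) and Neurod4 at 40 to 80 (51.6 CPM, beside 51.0 CPM at 20 to 40), but their libraries were highest in different bins. Atoh1 showed no common highest bin. The bin of 20 to 40 spans the neuron cut of 30.

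**Figure D2:**
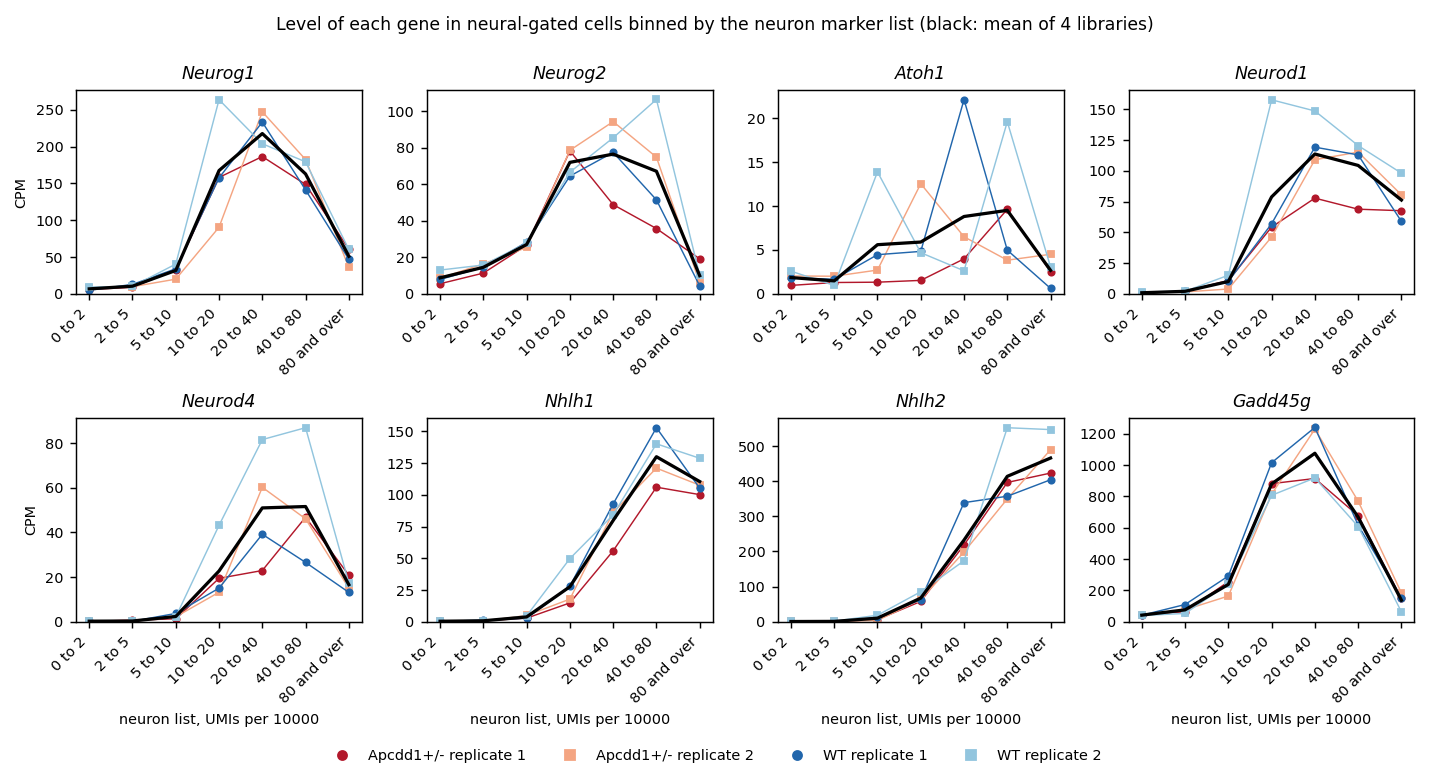
Level of each gene, in CPM, in neural cells binned by the sum of 10 neuronal genes per 10000 UMIs, with 1 line per library and the mean in black. Sensory-list neurons are left out. Gadd45g is highest in the bin of 20 to 40 in all 4 libraries and Nhlh1 in the bin of 40 to 80.

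Within the neuroblast gate, cells with little G2/M message had more Gadd45g and Nhlh2 than cycling ones, while the other members overlapped. In the 367 neuroblast-gated cells with a G2/M sum under 2, Gadd45g had 1315, 1780.0, 1589 and 1306 CPM, against 1009, 935, 1151 and 1004 CPM in the 658 cells with a sum of 10 or over. Nhlh2 had 86.4, 157, 129.8 and 185 CPM in the cells under 2, against 62.6, 60.9, 69.4 and 68.5 CPM in those at 10 or over. The values did not overlap for either gene. Neurod1 had 69.2, 64.9, 88.4 and 84.0 CPM in the cells under 2, against 66.5, 67.5, 50.3 and 157 CPM in those at 10 or over, which did overlap. Values overlapped too for Neurog1 (209 to 339 CPM against 131 to 266 CPM), Neurod4 (22.1 to 60.5 against 8.57 to 32.7), Nhlh1 (30.3 to 73.9 against 12.4 to 43.4), Neurog2 and Atoh1. These splits were made after the data had been seen and were given no test, and how many of all genes separate in them was not counted.

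In single neuroblast-gated cells, Neurog1 was often seen beside Neurog2 and Neurod1, and Atoh1 was not seen beside either Neurog gene. Neurog1 was seen in 122 of 255 thinned neuroblast-gated cells with a Neurog2 UMI (47.8%, exact Clopper-Pearson 95% interval 41.6% to 54.2%), against 27.1% (24.6% to 29.8%) of those without. It was seen in 59.3% (52.0% to 66.3%) of cells with a Neurod1 UMI and 26.3% (23.9% to 28.9%) of those without. Gadd45g was seen in 86.2% of cells with a Neurog1 UMI and 73.0% of those without. By contrast 0 of 45 cells with an Atoh1 UMI also held Neurog1, which allows a share of up to 6.67% by the same limit of 3 counts (7.87% by the exact interval), against 31.8% of the 1369 others, and 0 of 45 held Neurog2, against 18.6% of the others. Without thinning the counts were 0 of 70 for both, against 48.4% and 28.3%. Nhlh2 was seen in 22 of the 45 cells with Atoh1 (48.9%, 33.7% to 64.2%), against 11.6% (9.96% to 13.4%) of the others. The 45 cells came from all 4 libraries (7, 16, 15 and 7 cells), and intervals and limits cover counting error only.

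**Figure D3:**
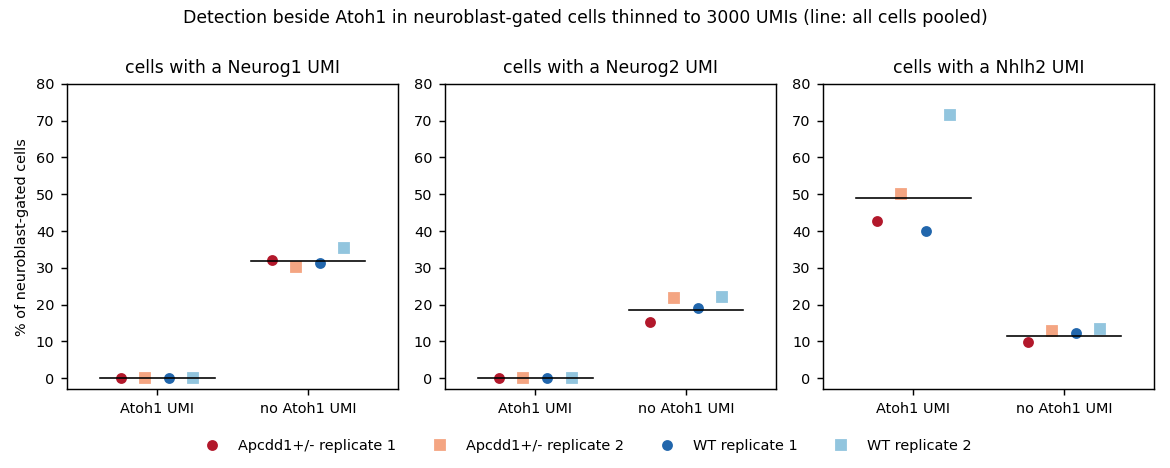
Percent of neuroblast-gated cells, thinned to 3000 UMIs, with a UMI of Neurog1, Neurog2 or Nhlh2, among cells with an Atoh1 UMI (left) and without one (right), 1 point per library and a line for all cells pooled. Neurog1 and Neurog2 are at 0 in the 45 cells with Atoh1, and Nhlh2 is at 48.9%.

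Genes of the surrounding pathway moved as follows, with lists and members chosen with earlier results of these data known. Of 12 listed genes downstream of proneural factors, 11 were tested and 11 were higher in neuroblast-gated than in progenitor-gated cells, with a median log2 difference of 3.75, where the median of all genes tested was -0.01 and 23.6% of them were higher and 25.1% lower. They included Eomes (8.08), a T-box factor of intermediate progenitors, the early neuronal factors Ebf2 (6.48) and Ebf3 (5.62), and Onecut1 (5.92). Of 14 other neural bHLH factors, 9 were tested and 6 were higher, among them Bhlhe22 (6.29), and 0 were lower. The 6 include Bhlhe23 and Tal1, which were scarce in both classes (means of 1.46 and 2.46 CPM in neuroblast-gated cells, against 0.0680 and 0.271 CPM in progenitor-gated cells) and far more abundant in neuron-gated cells (88.7 and 51.8 CPM), a class that shares the low-count filter of this comparison. Of 4 Hes and Hey repressors tested out of 7 listed, 3 were lower, namely Hes3 (-1.94), Hes1 (-1.28) and Hey1 (-0.83), and Hes2 was called higher. It had 0.988 to 13.2 CPM in neuroblast-gated cells, against 0 to 0.0301 CPM in progenitor-gated cells, too few counts in progenitor-gated cells for a fold to be given. The E proteins Tcf4 (0.85) and Tcf12 (0.55), which pair with the bHLH members, were higher. The Id proteins, which bind E proteins and keep them from DNA, split: Id3 (-1.25) and Id4 (-1.02) were lower, and Id1 (0.42) and Id2 (0.18) were higher by less. In all, 4 of the 7 genes of that list were higher and 2 lower. G2/M genes were lower in 8 of 12, with a median of -0.20.

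In neuron-gated against neuroblast-gated cells the same lists split. Of the 11 downstream genes tested, 7 were higher, such as Onecut2 (2.96) and Ebf1 (2.96), and 3 were lower, such as Rcor2 (-0.60), where the median of all genes was -0.06 and 27.3% of them were higher and 32.2% lower. Among 9 other bHLH factors, 3 were higher, namely Bhlhe23 (5.89), Tal1 (4.24) and Bhlhe22 (0.84), and 5 were lower, including Olig1 (-2.20). All 7 E and Id genes were lower, from Id3 (-1.94) to Tcf4 (-0.25), Hes1 was lower (-2.67) as 1 of 4 Hes and Hey genes, and all 12 G2/M genes were lower (median -2.0).

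Across 23 classes and regions, the genes whose mean level on the log2(CPM + 1) scale followed each member most closely were named by Pearson correlation among 12004 genes. The points share cells, since regions lie within the neural classes, and several of the genes are gate genes, so the values are a description. Nhlh1 and Nhlh2 were closest to Srrm3 (0.953 and 0.946), a neuronal splicing factor, and to each other at 0.969. Neurod1 was closest to Dcx (0.905), a microtubule protein of migrating neurons and a gate gene, and to Ebf2 (0.901). Neurod4 was close to Vxn (0.931) and Bhlhe22 (0.925). Neurog1 was closest to Ppp1r14a (0.889), Elavl4 (0.874) and Bhlhe22 (0.854), and Neurog2 to Rhbdl3 (0.868) and Kcnk10 (0.858). Gadd45g was closest to Dll3 (0.879) and Btg2 (0.869), both gate genes, and Atoh1 to Iqck (0.847), Rnd2 (0.817) and Olig3 (0.792), a bHLH factor of the dorsal neural tube. Atoh1 reached 0.374 to 0.590 with the other members.

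Regions were read from patterning genes in progenitor-gated, transitional and neuroblast-gated cells. Of these 16468 cells, 8103 were given no region, among them 808 of the 1414 neuroblast-gated cells, and the region tests leave them out. Of the regions, 6 had at least 50 cells in every library. Each was tested against the mean of the other 5 (edgeR, library as a block). The percentage of 11554 genes passing was 26.8% in the pallium, 14.1% in the hypothalamus, 11.7% in thalamus and pretectum, 14.0% in the dorsal midbrain and isthmus, 9.72% in the rest of midbrain and isthmus and 27.9% in the floor plate. The members gave 14 calls, and Atoh1 fell under the low-count filter. Neuroblast-gated cells made up 5.82% of pallial, 6.45% of hypothalamic, 5.74% of thalamic, 10.8% of dorsal midbrain, 9.34% of other midbrain and 8.92% of floor plate cells. Because that share differed between regions, each call was repeated in neuroblast-gated cells alone, where 6 of the 14 held. These repeats rest on few cells: 14 to 52 per library in the pallium, 2 to 11 in the hypothalamus, 10 to 42 in thalamus and pretectum, 9 to 28 in the dorsal midbrain, 10 to 33 in the rest of the midbrain and 10 to 27 in the floor plate.

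The largest of the 14 differences was that of Neurog2 in the dorsal midbrain, with 2.03, 5.01, 2.84 and 0 CPM, against means of 9.49 to 24.1 CPM in the other 5 regions (log2 difference -2.80, SE 0.30, adjusted p = 2.70e-10 by edgeR). It was -2.87 among neuroblast-gated cells. Neurog1 in the same cells had 14.5, 16.3, 16.7 and 16.1 CPM and did not pass (0.45, adjusted p = 0.180 by edgeR). Over all its region cells the hypothalamus gave the opposite pair. Neurog1 had 4.31, 2.02, 6.28 and 0 CPM there, against means of 10.9 to 24.6 CPM elsewhere (-2.25, SE 0.39, and -1.94 in 28 neuroblast-gated cells with 13 Neurog1 UMIs). Neurog2 at 5.54, 10.1, 12.6 and 9.79 CPM did not pass (-0.48, adjusted p = 0.325 by edgeR). In those 28 neuroblast-gated cells the pair was not seen, since Neurog2 averaged 36.5 CPM (13 UMIs) beside 39.2 CPM of Neurog1. Mean Neurog2 in neuroblast-gated cells was 13.3 CPM in the dorsal midbrain and 102 to 226 CPM in the remaining tested regions. The difference between the 2 genes within a region was not tested.

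The pallium had more Neurog2 and Neurod1 than the mean of the other tested regions. Neurod1 had 6.60, 4.94, 7.55 and 9.43 CPM in pallial cells, against means of 1.53 to 5.89 CPM in the other regions (1.41, SE 0.26, adjusted p = 1.99e-05 by edgeR), and Neurog2 had 17.1, 25.1, 20.2 and 19.2 CPM (0.95, SE 0.15). In neuroblast-gated cells alone the differences were 2.15 and 1.82. Over all region cells, mean Neurog2 in the pallium (20.4 CPM) was not the highest. It was 24.1 CPM in the midbrain cells without dorsal genes and 21.7 CPM in the floor plate. Thalamus and pretectum (14.5 CPM), hypothalamus (9.49 CPM) and dorsal midbrain (2.47 CPM) lay below the pallium. Eomes, on the list of downstream genes, was also higher in the pallium (6.92, SE 0.32). Neurod4 was higher in 2 regions. It had 3.67, 0.663, 5.05 and 12.6 CPM in the midbrain cells without dorsal genes (2.22, SE 0.41) and 1.24, 6.41, 6.83 and 5.18 CPM in the floor plate (1.88, SE 0.43), and both calls held in neuroblast-gated cells (2.11 and 1.94). Its libraries were spread widely, and Apcdd1+/- replicate 2 in the midbrain cells and Apcdd1+/- replicate 1 in the floor plate lay lowest.

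The other 8 calls did not hold in neuroblast-gated cells alone, where fewer cells and fewer genes were tested. Gadd45g was higher in the dorsal midbrain (152, 238, 266 and 118 CPM, 0.91, SE 0.10) and lower in the pallium (-0.60, SE 0.10) and in thalamus and pretectum (-0.57, SE 0.10), and in neuroblast-gated cells the differences were 0.43, -0.04 and -0.20. In the midbrain cells without dorsal genes Neurog1 (1.07, SE 0.20), Neurog2 (1.06, SE 0.19) and Neurod1 (1.10, SE 0.34, adjusted p = 0.0292 by edgeR) were higher, and in neuroblast-gated cells the differences were 0.63, 0.55 and 0.69. That Neurod1 call was also lost by DESeq2 (1.06, adjusted p = 0.0767), without Apcdd1+/- replicate 1 (0.74), without WT replicate 2 (0.82) and with the region cut at 2 times its value (1.00). Neurog2 was higher in the floor plate (0.97, SE 0.19; 0.76 in neuroblast-gated cells), and Neurod4 was lower in thalamus and pretectum (-2.35, SE 0.58; -1.61 in neuroblast-gated cells). All region calls of Neurod4 rest on few UMIs. It had 8 in the 2092 cells of thalamus and pretectum, 7 in dorsal midbrain, 9 in hypothalamus and 23 in pallium. The floor plate held 40 and the midbrain cells without dorsal genes 50. Nhlh1 and Nhlh2 passed in 0 of the 6 regions by edgeR.

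Atoh1 was read by level only. It had 16.9, 30.6, 26.6 and 16.8 CPM in the 226 roof plate and choroid plexus cells, from 8, 9, 9 and 3 cells with a UMI, and 24.9, 11.1, 4.31 and 32.3 CPM in the 150 dorsal hindbrain cells, of which Apcdd1+/- replicate 1 gave 4. The 92 hindbrain cells without dorsal genes had it too, at 0, 8.23, 11.6 and 60.7 CPM, of whose 27 UMIs WT replicate 2 gave 20, so their mean of 20.1 CPM was no lower than that of 18.2 CPM in the dorsal hindbrain. Atoh1 had 4.92, 4.38, 1.58 and 5.87 CPM in the dorsal midbrain and isthmus. No UMI was seen in the hypothalamus (0 of 434 cells, a limit of 0.618 CPM from 3 counts over the 4 libraries), the retina (0.656 CPM) or the midbrain cells without dorsal genes (0.290 CPM). In the roof plate Neurog1 had 0 to 2.80 CPM and Neurog2 0 to 1.61 CPM, while Neurod1 and Neurod4 had no UMI. The roof plate and both hindbrain groups were not tested, having under 50 cells in at least 1 library. The 8103 cells given no region held 229 Atoh1 UMIs (mean 2.68 CPM), against 60 in the roof plate and choroid plexus cells. The named regions thus miss much of the Atoh1 signal.

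**Figure D4:**
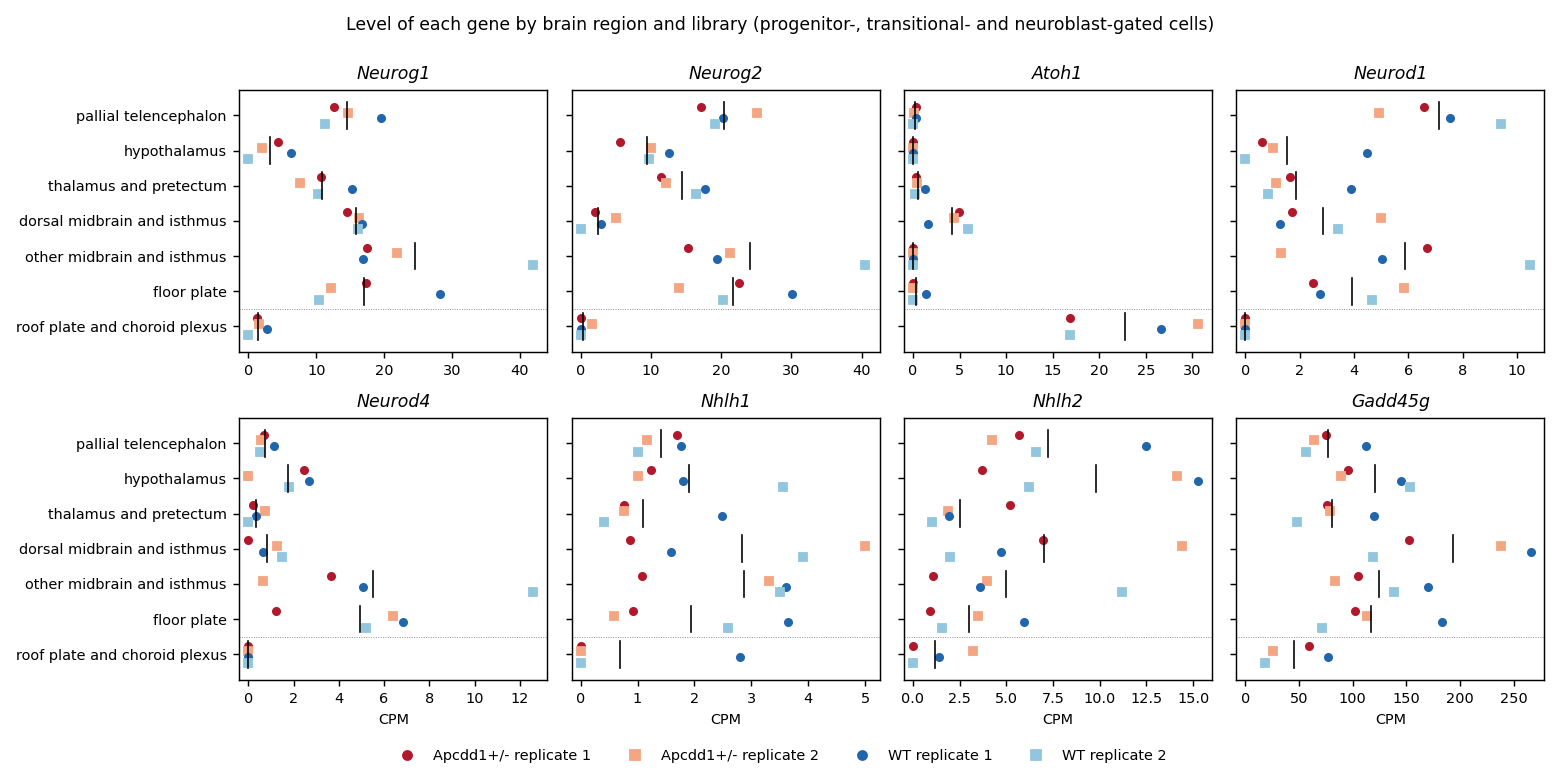
Level of each gene, in CPM, by region in progenitor-gated, transitional and neuroblast-gated cells, 1 point per library and a line at the mean, with the roof plate, which was not tested, below the dotted line. Among the 6 tested regions Neurog2 is lowest in the dorsal midbrain and Neurog1 in the hypothalamus, and Atoh1 is higher in the roof plate than in any of them.

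Between the genotype labels no member passed the test. Over all neural cells 0 of 15012 genes (0%) passed by edgeR. An unadjusted p under 0.05 was reached by 204 of them (1.36%), and DESeq2 called 1, Eomes (-1.27, adjusted p = 0.00122), which was named after its value was seen and had -1.28 (SE 0.20, adjusted p = 1.00) by edgeR. Neurod1 had 6.37 and 8.88 CPM in the libraries labelled Apcdd1+/- and 9.59 and 14.0 CPM in the WT libraries, a log2 difference of -0.58 (SE 0.21, 95% interval -1.06 to -0.10, adjusted p = 1.00 by edgeR). Neurog1 had 18.3 and 19.2 CPM in the libraries labelled Apcdd1+/- and 23.2 and 26.3 CPM in the WT libraries (-0.36, SE 0.14, 95% interval -0.67 to -0.05). Both libraries labelled Apcdd1+/- lay below both WT libraries for these genes. By narrow gaps the same held for Nhlh1 (4.70 and 7.97 CPM against 8.67 and 8.66 CPM) and Nhlh2 (17.5 and 27.1 CPM against 27.4 and 28.0 CPM), while the groups overlapped for the other 4. How many of all genes separate the labels in this way was not counted, so this is not read as a joint fall of the members.

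The differences of Atoh1 (-0.57), Neurod4 (-0.44), Nhlh1 (-0.43), Nhlh2 (-0.28), Neurog2 (-0.20) and Gadd45g (-0.12) had 95% intervals that included 0 and reached from -1.31 to 0.32 between them. Sums over neural cells cannot tell fewer neuroblasts from less RNA per neuroblast. In neuroblast-gated cells alone edgeR and DESeq2 each called 0 of 11083 genes (0%), 294 of which (2.65%) had an unadjusted p under 0.05 by edgeR, and the members lay between -0.55 for Nhlh1 (SE 0.29) and 0.05 for Neurog2 (SE 0.18). Single libraries weighed on these values: without Apcdd1+/- replicate 2, 222 genes passed over neural cells, among them Atoh1 (-1.15), Neurod1 (-0.81), Nhlh1 (-0.82) and Nhlh2 (-0.60), and 62 passed without Apcdd1+/- replicate 1, with no member among them. The Y-linked gene Eif2s3y had 0 and 45.5 CPM in the libraries labelled Apcdd1+/- and 35.8 and 0 CPM in the WT libraries, and Ddx3y, also Y-linked, had 3.74 and 26.0 CPM in the libraries labelled Apcdd1+/- and 26.3 and 3.25 CPM in the WT libraries. Each label thus had 1 library with Eif2s3y and more Ddx3y, while some Ddx3y was seen in all 4. With presence of Eif2s3y as a term, an alternative chosen after seeing the data, the 8 members kept their direction over neural cells and 0 genes passed.

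Neuroblast-gated cells were 7.21% (exact Clopper-Pearson 95% interval 6.61% to 7.84%) and 7.83% (7.01% to 8.70%) of neural cells in the libraries labelled Apcdd1+/-, against 10.2% (9.32% to 11.2%) and 7.81% (6.70% to 9.04%) in the WT libraries. The difference of means was -1.50 percentage points (exact two-sided permutation test, p = 0.667, where 2 libraries against 2 can give no less than 1 in 3), and WT replicate 2 lay between the libraries labelled Apcdd1+/-. Without WT replicate 1 the difference was -0.30 percentage points.

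**Figure D5:**
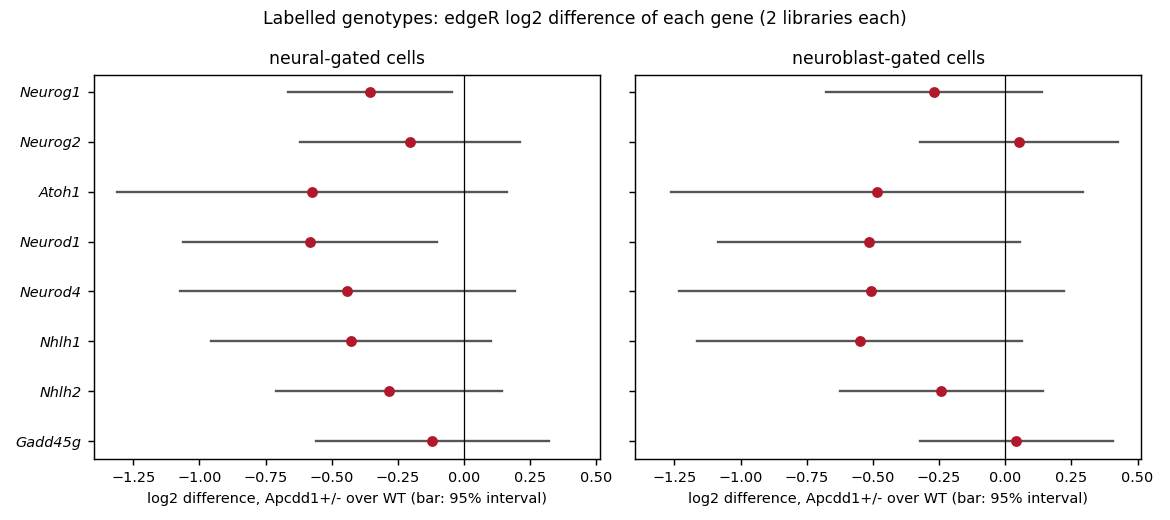
Log2 difference of each gene, Apcdd1+/- minus WT by label, with its 95% interval, in neural cells (left) and neuroblast-gated cells (right). The intervals of Neurog1 and Neurod1 in neural cells lie below 0, all others include 0, and no gene passed after adjustment.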

How the data were processed

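The matrices deposited by the authors held raw UMI counts, 1 per gene and cell, and name PISA 0.12 as their writer, per the file headers. Heads were kept overnight in preservation solution and dissociated with enzymes, dead cells were removed by sorting, and libraries were made with a DNBelab C kit, per the labels' protocols. The submitters' processing notes list mm10 and Scanpy 1.9.1 without saying what each was used for. The sources used here name no aligner, annotation or earlier filter on cells.

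Cells with at least 3000 UMIs, 500 genes and under 10% mitochondrial counts were kept (23300 of 25074). Total UMIs per library were 96822641 and 58600897 in Apcdd1+/- replicates 1 and 2 and 82496666 and 55393605 in WT replicates 1 and 2. The barcode file of Apcdd1+/- replicate 1 names 3994 of its 9735 cells, so barcode sharing was counted over named cells. Class, region and list genes, and the rule that names the closest genes (the 3 with the highest correlation over class and region means, among genes of at least 10 CPM in 1 of them), were chosen, like the members, with earlier results of these data known. From each pathway list up to 4 genes past the threshold were named by the size of their change, and some genes that these rules name are not reported here. A region cut that left under 50 cells in a library was halved once.

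UMIs were summed per library and class or region, scaled to CPM for display and tested with edgeR 4.0.16 (TMM, filterByExpr, quasi-likelihood test, Benjamini-Hochberg adjustment over all genes). DESeq2 1.42.0 was an alternative, beside other size factors, filters and cuts, each library left out and a replicate block. Replicate numbers did not pair the libraries by the correlation of their deviations (0.0418 and 0.0990). Scripts were tested on simulated data.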

Additional observations from a re-analysis of the deposited data

Results flagged for a closer look

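In 80 groups of 4 libraries (a gene in a class or region), the highest or lowest library stood far from the other 3 by Dixon's 95% criterion in 6, where chance gives about 1 in 20. Neurod1 in neuroblast-gated cells had 127 CPM in WT replicate 2 (310 UMIs), against 56.8 to 61.0 CPM in the other 3 libraries. Gadd45g in neuron-gated cells had 290.3 CPM in WT replicate 2, against 389.9 to 406 CPM in the others. In thalamus and pretectum, WT replicate 1 had 1.24 CPM of Atoh1 (7 UMIs in 2 of 446 cells), against 0.208 to 0.380 CPM, and 2.48 CPM of Nhlh1 (14 UMIs), against 0.417 to 0.760 CPM. Nhlh1 in the midbrain cells without dorsal genes had 1.08 CPM (5 UMIs) in Apcdd1+/- replicate 1, against 3.32 to 3.61 CPM. Atoh1 in the floor plate had 1.37 CPM (3 UMIs in 1 of 211 cells) in WT replicate 1 and 0 in the others, so single cells set these Atoh1 values.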

How the results depend on the processing

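Every member stayed higher in neuroblast-gated than in progenitor-gated cells under all alternatives run. In neuron-gated against neuroblast-gated cells, the direction turned for Neurog1 (0.34) with class cuts at 0.5 times, for Neurod1 (-0.11) and Neurod4 (-0.12) with cuts at 1.5 times, and for Neurod4 with a library left out (-0.059 to 0.30). The other alternatives that change a member's call are given beside that result. Mean levels of the 4 neural classes moved by over 1 SD in 41 of 96 cases, with class cuts moved or cells kept from 1000 UMIs. In neuroblast-gated cells alone, genes called per region fell to 114 in dorsal midbrain, 103 in floor plate, 82 in hypothalamus, 91 in other midbrain, 167 in pallium and 57 in thalamus and pretectum, with 4826 genes tested. The dorsal midbrain count was 1069 with the region cut at 2 times. With a library left out, it was 700 to 1031 in other midbrain and 897 to 1161 in thalamus and pretectum.

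Between genotypes in neural cells, DESeq2 called 1 gene, no low-count filter 13, and leaving out a library 0 to 222. There the range without a library was -0.41 to 0.27 for Gadd45g and -0.45 to 0.015 for Neurog2. In neuroblast-gated cells, no filter called 4 genes (Egr1, Nr2e1, Sst and Tuba4a, named after their values were seen) and leaving out a library 0 to 23, with 3 without Apcdd1+/- replicate 1 (Egr1, Jun and Rpl9-ps6, also named afterwards) and 7 without WT replicate 1. The ranges without a library were -1.20 to 0.066 for Atoh1, -0.10 to 0.20 for Gadd45g, -0.96 to 0.076 for Neurod1, -0.98 to 0.088 for Neurod4, -0.51 to 0.0014 for Neurog1 and -0.070 to 0.16 for Neurog2. With cuts at 0.5 times, Gadd45g was at -0.051, Neurod4 at 0.10 and Neurog2 at -0.28. The cause of these changes was not tested.

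A replicate block called 0 genes in neural and 11 in neuroblast-gated cells and left the difference in neuroblast share at -1.50 points. The numbers were not taken as pairs, since same-numbered libraries correlated at 0.0418 and 0.0990. Where 1 library of a label remains, its spread is taken from the other label. Depth limits Atoh1 and Neurod4 in single regions, and Nhlh1 and Neurod4 in progenitors, to few UMIs.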

Other observations

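Members were also seen outside the neural classes. In epithelial cells, thinned to 3000 UMIs, Neurog1 was seen in 31 of 866 cells (3.58%, exact Clopper-Pearson 95% interval 2.44% to 5.04%), Neurod1 in 24 (2.77%, 1.78% to 4.10%) and Nhlh1 in 15 (1.73%, 0.973% to 2.84%), against 0.378%, 0.0582% and 0.204% of mesenchymal cells. Their levels by library ran from 9.24 to 27.2 CPM for Neurog1, 9.86 to 34.1 CPM for Neurod1 and 3.72 to 19.3 CPM for Nhlh1, with Apcdd1+/- replicate 2 highest for each. Atoh1 was seen in 1 of the 866 epithelial cells. Gadd45g was seen in 50 of 242 endothelial cells (20.7%, 15.7% to 26.3%) and in 16 of 126 erythroid cells (12.7%, 7.44% to 19.8%), against 5.56% of mesenchymal cells. The median depth was 12444 UMIs in epithelial, 12315 in endothelial, 20085.5 in erythroid and 13773 in mesenchymal cells. Whether doublets with neuroblasts play a part was not tested. Among the 65 subpallial cells, of which 15 were neuroblast-gated, Gadd45g had 365 and 631 CPM in the libraries labelled Apcdd1+/- and 141 and 39.7 CPM in the WT libraries, from 29 and 15 cells against 16 and 5, and no UMI of Neurog1, Neurod1, Neurod4, Nhlh1 or Nhlh2 was seen.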
